A study of Macaca fascicularis and Mus musculus with 42 samples.

Results

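A set of 40 genes of mitosis was followed in cynomolgus monkey (Macaca fascicularis) stem cells as they were induced towards primordial germ cell-like cells (PGCLC), the cultured counterparts of the founders of the germ line. The genes were chosen by name, for the known role of their products, but with earlier results of these data known. All 40 had an entry of their symbol among the 26018 of the monkey table. By role, 9 are genes of the kinase CDK1, its activators or centrosome separation (CDK1, CCNA2, CCNB1, CCNB2, CDC25B, CDC25C, PLK1, AURKA, NEK2). A further 2 are of chromosome structure (MKI67, TOP2A) and 3 of the chromosomal passenger complex (AURKB, BIRC5, INCENP). To these come 6 genes of the centromere and kinetochore (CENPA, CENPE, CENPF, NDC80, NUF2, SPC25), 5 of the spindle checkpoint (BUB1, BUB1B, BUB3, MAD2L1, TTK), 7 of the spindle (TPX2, KIF11, KIF2C, HMMR, NUSAP1, DLGAP5, ASPM), 3 of anaphase (CDC20, UBE2C, PTTG1) and 5 of cytokinesis (KIF20A, KIF23, PRC1, ANLN, ECT2). Their mouse orthologs are scattered over 15 chromosomes of GRCm38, with Plk1, for example, at chr7:122159439-122169873 on the forward strand.

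Mitosis begins when CDK1 bound to its cyclins is switched on, which condenses the chromosomes and starts the spindle. Kinetochores then attach chromosomes to spindle fibres, the checkpoint holds the cell until all are attached, and the anaphase-promoting complex releases it by having cyclin B and securin destroyed, after which the cell pinches apart. Most of these transcripts build up late in the cell cycle, so their level in bulk RNA depends on how many cells are dividing; bulk libraries cannot tell fewer dividing cells from less RNA per cell. Primordial germ cells of the embryo divide while they migrate, and later stop: those of males halt before mitosis and those of females enter meiosis.

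The sequencing covered only transcript 3′ ends, and levels are in RPM, read counts scaled to the size of each library. The reporter ESC (embryonic stem cells; 4 libraries used) and all sorted monkey cells carried Blimp1-tdTomato and TFAP2C-EGFP, reporters of the germ cell factors PRDM1 and TFAP2C, in the clone 656BTAG42, apart from reporter ESC library 2, which was of clone 656BTAG63. ESC were grown in AITS medium with IWR1, a Wnt pathway inhibitor, and bFGF at 20 ng/ml. Monkey aggregates were induced with BMP4 at 200 ng/ml, SCF at 100 ng/ml, EGF at 50 ng/ml, LIF at 1000 U/ml and Y27632 at 10 µM, either in GMEM with 15% KSR (GK15) or in Advanced RPMI1640 with B27 (aRB27). Cells positive for both reporters (BTAG positive) gave 2, 2 and 3 libraries on days 2, 4 and 6 in aRB27 and 1, 1, 2, 2 and 2 on days 2, 4, 6, 8 and 10 in GK15. Cells sorted as BT single positive gave 1 and 2 libraries on days 2 and 4 in aRB27, and cells sorted as AG mid positive gave 1 on day 2 in aRB27 and 1 on day 4 in GK15. A further 5 libraries were of ESC that carry no transgenes (lines CMK6, 656, 681F and 22), and mouse PGCLC of line R8, with Blimp1-membraneVenus and Dppa3-ECFP reporters and reached through an epiblast-like stage, gave 2 libraries on day 4 and 2 on day 6, with the same factors and doses in GMEM with 15% KSR. Nothing in the labels says that a group's libraries were grown as separate cultures, and the p-values measure only the spread between these samples, which may be technical.

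Of the 33 reporter-line libraries, 9 were left out because their group is in doubt; in 6 of them the level of PRDM1 went against the sorting label. Among the 24 kept, PRDM1 was at least 85.1 RPM in all 18 libraries sorted for its reporter and at most 11.1 RPM in the 6 reporter ESC and AG mid libraries. With the libraries that went against their label left out, this split cannot serve as a check of the labels. The 6 germ cell markers summed to between 1562 and 2258 RPM in the BTAG positive groups against 4.40 to 21.1 RPM in reporter ESC, and 4 markers of primed ESC to between 40.1 and 481.6 RPM against 2014 to 3168 RPM. The germ cell markers include PRDM1 and TFAP2C, whose reporters were used to sort the cells. Markers of endoderm (9 genes) stayed at or below 104 RPM in BTAG positive cells but reached 381 to 2414 RPM in BT single positive cells, where all 9 were detected, and 5 amnion markers reached 651 to 713 RPM in the AG mid libraries. Depth, in units of 1e6 reads, was 1.08 to 6.80 per monkey library and 2.26 to 2.48 in mouse; over days 8 and 10 it was 1.08 to 4.55, and in reporter ESC 1.86 to 6.80. The 10 most abundant genes took 7.17 to 9.21% of RPM over days 8 and 10 and 6.84 to 8.0% in reporter ESC; the part of depth or of this share in the results was not tested.

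Among the libraries kept, mitosis genes were lower the longer the cells had been induced, with days after 6 held by GK15 alone. The 40 levels added up to 6626 ± 1328 RPM in reporter ESC (SD, n = 4). The sum was 5714 ± 1274 RPM on day 2, 4304 ± 105 on day 4 and 3302 ± 94.2 on day 6 in aRB27 (n = 2, 2 and 3). In GK15 it was 5083 RPM in the lone library of day 2 and 4607 RPM in that of day 4, 3836 ± 165 RPM on day 6, 2626 ± 609 on day 8 and 1746 ± 238 on day 10 (n = 2 each). Day 10 in GK15 thus stood at 26.4% of the reporter ESC mean. BTAG positive cells of days 8 and 10 in aRB27 gave 1 library each, both among those left out. These summed to 2756 and 3016 RPM in that order, with PRDM1 at 135 and 194 RPM, not against their label. All BTAG positive libraries kept of day 4 and later lay below the lowest reporter ESC library (5226 RPM). A day 2 library in aRB27 reached 6615 RPM and overlapped the ESC libraries. In GK15, days 8 and 10 did not overlap day 6.

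**Figure D1:**
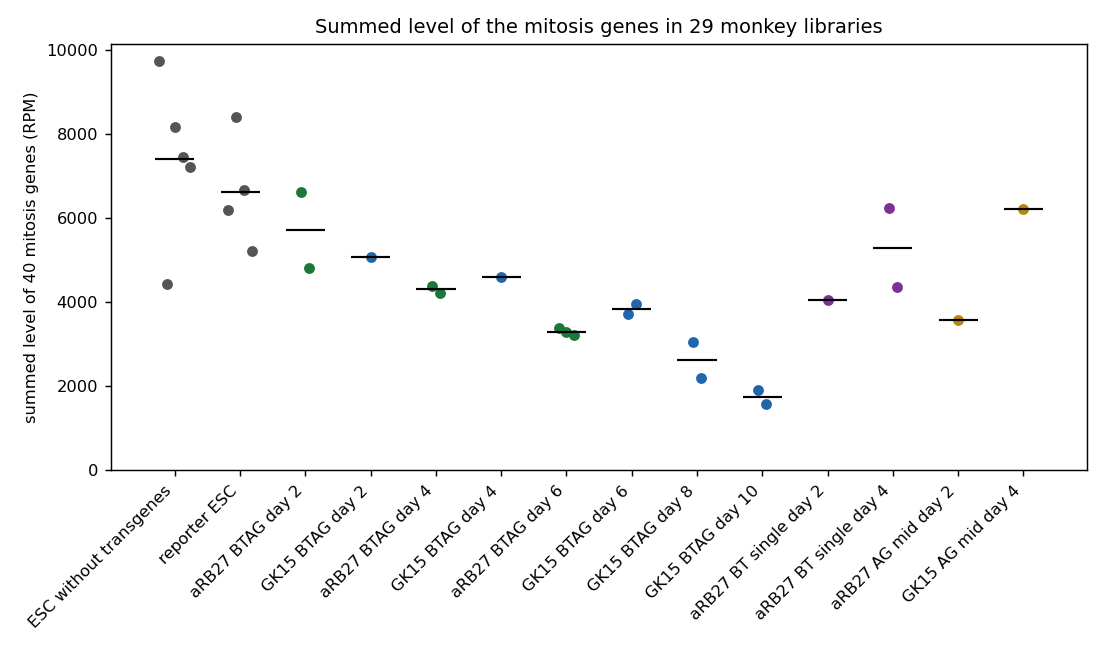
Summed level of the 40 mitosis genes in RPM (vertical axis) in each of 29 monkey libraries (points), by group (horizontal axis); horizontal lines are group means. The BTAG positive groups step down from 5714 and 5083 RPM on day 2 to 1746 RPM on day 10. On day 4 the BT single positive libraries are at 4372 and 6230 RPM and the AG mid library is at 6226 RPM. BTAG positive libraries of that day span 4230 to 4607 RPM. On day 2 the BT single (4052 RPM) and AG mid (3575 RPM) libraries lie below all BTAG positive ones.

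Along the BTAG positive libraries, the level per day of induction was fitted over 15 libraries with the medium as a term. A gene was called here, as in every comparison, when limma's Benjamini-Hochberg adjusted p over all genes was under 0.05, and its change at least 1 on the log2 scale of RPM + 1 (for the trend, at least 1 over 8 days). Of the 40 mitosis genes 35 were called as falling with the day, where 12.2% of the 9826 genes tested were. None was called as rising. All 40 slopes were negative, with a median of -0.21 log2 units per day against -0.03 over all genes. ECT2, which activates the contractile ring, fell by 0.23 per day (SE 0.02, limma adjusted p = 9.84e-06), and CDK1, the kinase that drives entry into mitosis, by 0.30 per day (SE 0.03, limma adjusted p = 9.84e-06). The 5 genes not called were CDC25B and CDC25C, phosphatases that activate CDK1, NEK2, a kinase of centrosome separation, and the checkpoint genes BUB3 and MAD2L1. CDC25B had the flattest slope (-0.01 ± 0.04 SE per day). Over days 2 to 6 alone 22 genes were called, where 14.6% of genes were, and in GK15 libraries alone 33, where 6.99% were. TPX2, a spindle assembly factor, missed the threshold when GK15 BTAG day 2 library 1 was left out (limma adjusted p = 0.0652), as BUB1B did (-0.12 per day) when GK15 BTAG day 10 library 2 was. AURKB (-0.13 per day) missed it when any of 7 libraries was left out. These were both GK15 BTAG libraries of day 10, day 4 library 1, day 6 library 3 and day 8 library 2. The others were aRB27 BTAG day 2 library 1 and day 6 library 1. INCENP (-0.15 per day) missed it without GK15 BTAG day 10 library 1. The calls of AURKB and INCENP were also lost in edgeR, in DESeq2, with median-of-ratios or quantile scaling and with a pseudocount of 10.

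Late GK15 cells, those of days 8 and 10 together, were compared with reporter ESC. In this comparison 34 of the 40 genes were lower, and none higher, where 15.7% of 10701 genes tested were called lower. Their median difference was -1.64 against -0.09 over all genes, and ranged from -2.57 for BUB1 to 0.05 for CDC25B. Each of the 4 late libraries was lower than each of the 4 ESC libraries in 34 of the 40 genes, as it was in 21.8% of all genes. These are not the same 34 as those called. NEK2 and TPX2 were called but overlapped, while BUB3 and ASPM did not overlap but were not called. By role, 7 of 9 of the CDK1 group were called (NEK2 among them), both of chromosome structure and 1 of 3 passenger complex genes. So were all 6 of the kinetochore, 4 of 5 of the checkpoint and 6 of 7 of the spindle. All 3 of anaphase and all 5 of cytokinesis were called too.

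The other 6 genes were not called. ASPM, which acts at spindle poles, and BUB3, a checkpoint adaptor, had adjusted p-values of 0.000211 and 0.000234 in limma, with differences of -0.95 and -1.0 (before rounding, just under the size required). CDC25C differed by -0.74 (limma adjusted p = 0.0387), AURKB, the kinase of the passenger complex, by -0.57 (limma adjusted p = 0.0644) and INCENP, its scaffold, by -0.55 (limma adjusted p = 0.0704). CDC25B was 35.3 ± 7.88 RPM in late cells and 34.3 ± 9.49 in ESC (SD, n = 4 each).

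Leaving out 1 library at a time left between 31 and 35 genes called. Near the size required were PRC1, which bundles microtubules between the separating chromosomes, KIF11, NUSAP1 and NEK2. PRC1 lay at -1.01 and came to -0.81 without day 10 library 2, -0.88 without day 8 library 2 or without reporter ESC library 2, and -1.0 without reporter ESC library 1 or 3, each just under the threshold before rounding. KIF11, a motor that pushes spindle poles apart, came to -0.97 without GK15 BTAG day 10 library 2, NUSAP1, which binds spindle microtubules, to -1.0 without reporter ESC library 3, and NEK2 to -0.94 in the absence of GK15 BTAG day 10 library 2 and -0.89 in that of reporter ESC library 3. TPX2 overlapped between the groups: it was 12.1, 37.7, 23.5 and 27.2 RPM in the late libraries and 70.5, 27.6, 77.8 and 96.4 RPM in ESC, and its call (limma adjusted p = 0.043) was lost when any of 6 libraries was left out. These 6 were GK15 BTAG day 8 library 1, both day 10 libraries, and reporter ESC libraries 1, 3 and 4, with log2 differences between -0.98 and -1.42. The late calls of TPX2 and PRC1 were also lost in edgeR, in DESeq2 and with median-of-ratios or quantile scaling.

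**Figure D2:**
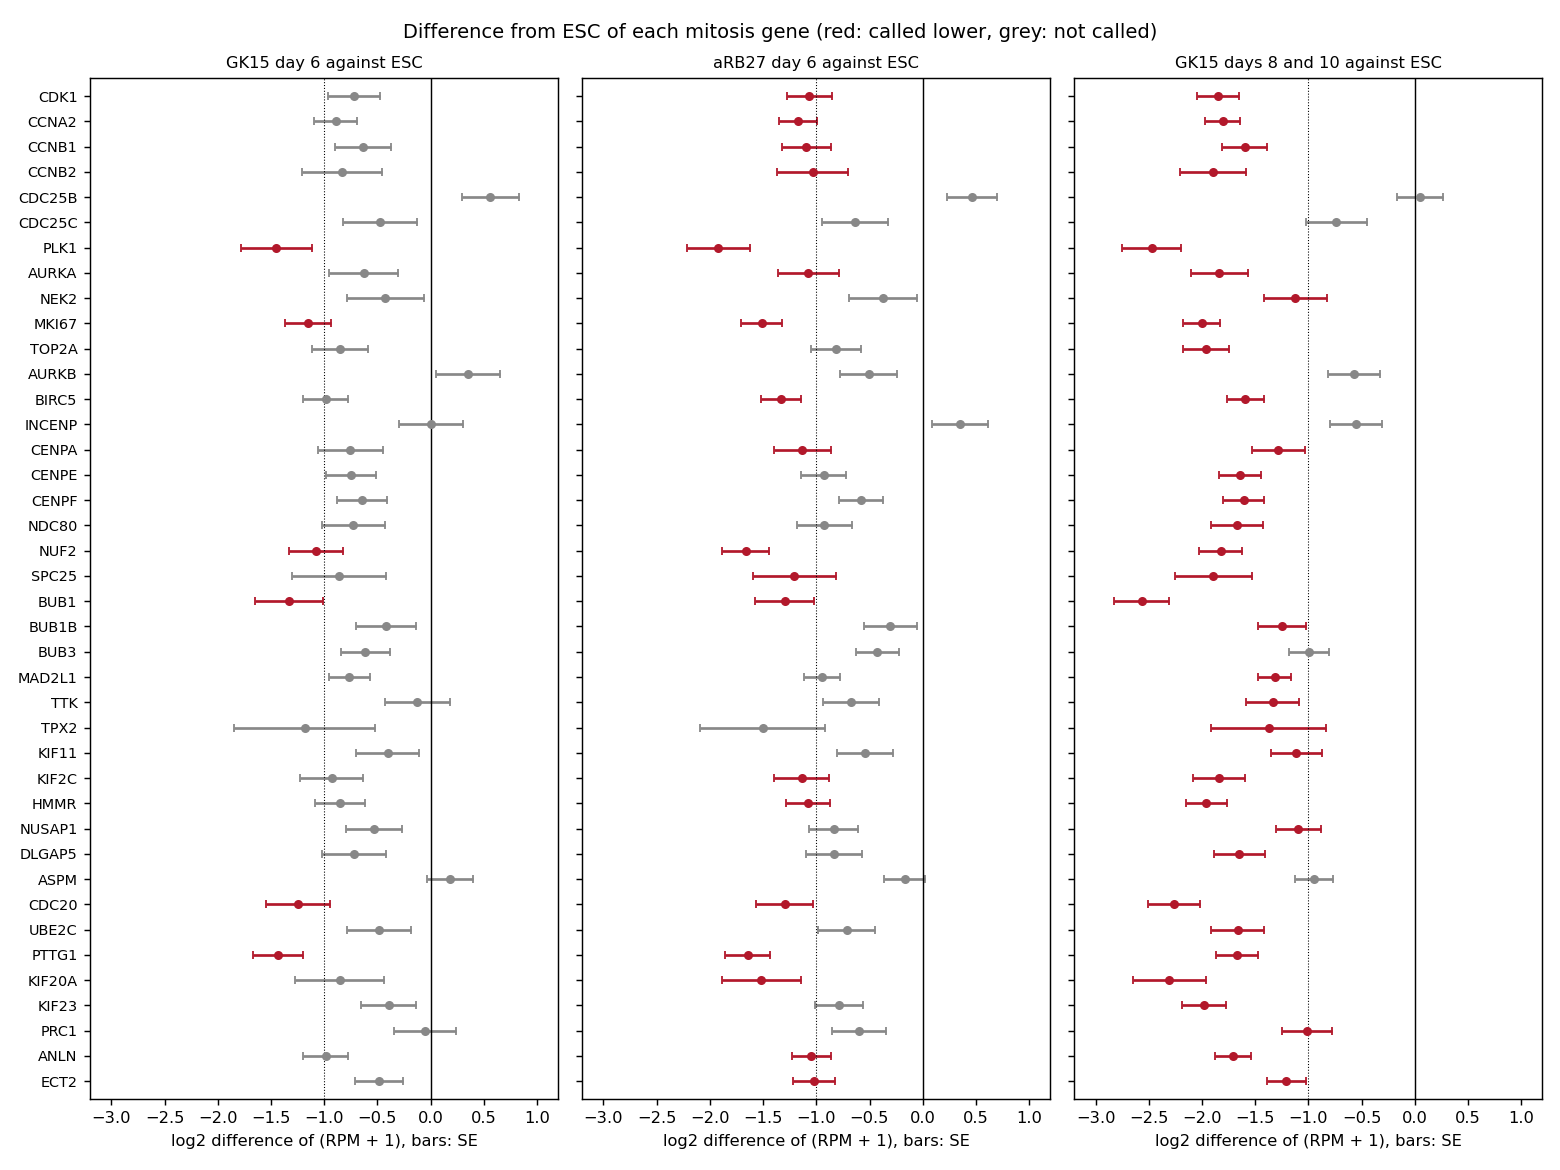
Log2 difference of RPM + 1 from reporter ESC (horizontal axes, bars are SE) for each of the 40 genes (vertical axis, by role) in GK15 day 6, aRB27 day 6 and GK15 days 8 and 10; red points are called lower, grey points are not called, and the dotted line marks -1. Calls number 6, 19 and 34 from left to right, and CDC25B is right of 0 in each panel.

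Day 6 is the latest day held by both media among the libraries kept. In aRB27, 19 of the 40 genes were lower than in ESC and none higher, where 13.1% of genes were called lower; the median was -0.98 against -0.08 over all genes, and 28 genes passed on the adjusted p alone (20.2% of all genes, lower). The 19 were CDK1, its cyclins CCNA2, CCNB1 and CCNB2, the kinases PLK1 and AURKA, MKI67, BIRC5, CENPA, NUF2, SPC25, BUB1, KIF2C, HMMR, CDC20, PTTG1, KIF20A, ANLN and ECT2, of which 10 missed the threshold when some single library was left out. In GK15, 6 were lower and none higher, where 10.8% of genes were called lower, with a median of -0.72 against 0.01, and 17 passed on the adjusted p alone (14.3% of all genes, lower). The 6 called were PLK1, MKI67, NUF2, BUB1, CDC20 and PTTG1, and each was also called in aRB27. All day 6 libraries were below all ESC libraries in 30 genes in aRB27 (21.2% of all genes) and 24 in GK15 (21.4%). These comparisons share the 4 ESC libraries, as do those of the other days, so they are not independent of one another. CDC25B went the other way without a call: it was 49.6 and 50.0 RPM on day 6 in GK15 and 24.2 to 46.6 RPM in ESC (log2 0.56, limma adjusted p = 0.119).

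Counts near the threshold moved with single libraries. Without reporter ESC library 2 there were 12 genes in aRB27, and without reporter ESC library 4 there were 11 in GK15. In GK15 the call of MKI67 was lost without GK15 BTAG day 6 library 1 (-0.95), that of NUF2 without reporter ESC library 1 (-1.0, before rounding just under the size required) and that of BUB1 without GK15 BTAG day 6 library 3 (limma adjusted p = 0.0509). With every library as labelled, all 9 libraries left out took part. Among them were the third GK15 library of day 6 (clone 656BTAG63, PRDM1 at 0.5 RPM against its label) and, on the ESC side, reporter ESC library 5 (PRDM1 at 253 RPM, also against its label). In GK15 limma then called 0 mitosis genes and 0 genes in all, while aRB27 had 20 mitosis genes.

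PLK1, a kinase needed at nearly every step from entry to cytokinesis, was 215, 313, 266 and 188 RPM in the reporter ESC libraries. It was 220 and 123 RPM on day 2 in aRB27 and 134 in GK15, and 135, 97.2 and 131 RPM in the same order on day 4. On day 6 it was 62.2, 56.3 and 70.8 RPM in aRB27 and 79.5 and 96.5 in GK15, then 77.1 and 33.6 RPM on day 8 and 40.8 and 30.9 on day 10. Every BTAG positive library from day 4 on was under every ESC library, and day 8 overlapped day 6. The ESC mean was 2.79-fold that of day 6 in GK15 (log2 -1.45, SE 0.34, limma adjusted p = 0.00243), 3.89-fold that of day 6 in aRB27 (log2 -1.92, SE 0.30, limma adjusted p = 4.11e-05) and 5.39-fold that of days 8 and 10 (log2 -2.47, SE 0.27, limma adjusted p = 5.44e-07). Libraries carry 2 codes in their titles, and PLK1 was lower on day 6 within each: 62.2 and 79.5 against 215 and 313 RPM under MS134, and 56.3, 70.8 and 96.5 against 266 and 188 RPM under MS162, which holds all libraries of days 8 and 10.

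MKI67 encodes Ki-67, the surfactant of mitotic chromosomes and a common stain for cycling cells. It was the steadiest of the 8 named genes in ESC, at 173, 179, 156 and 179 RPM, and was 148 and 118 RPM on day 2 in aRB27 and 90.7 in GK15. By day 6 it was 52.5, 55.7 and 72.1 RPM in aRB27 and 66.2 and 88.6 in GK15, and on days 8 and 10 it was 65.0, 42.8, 38.1 and 29.4 RPM. No induced BTAG positive library reached the lowest ESC value. The late difference was -2.0 (SE 0.18, limma adjusted p = 2.93e-08), a 3.92-fold higher mean in ESC. TOP2A, which untangles sister DNA, was 554 ± 152 RPM in ESC and 149 ± 66.5 RPM in late cells (SD, n = 4 each, log2 -1.96, SE 0.22, limma adjusted p = 5.42e-07). It was the most abundant of the 40 in ESC, although 3′ reads let levels of different genes be compared only roughly.

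BIRC5 encodes survivin, the arm of the passenger complex that docks it on centromeres. In ESC it was 187, 163, 149 and 135 RPM, and on day 2 it was 153 and 115 RPM in aRB27 and 132 in GK15. It reached 53.7, 61.0 and 72.8 RPM on day 6 in aRB27, 69.1 and 90.4 in GK15, and 66.9, 57.5, 43.6 and 42.2 RPM on days 8 and 10, so that day 2 still overlapped ESC and day 6 did not. Late cells differed from ESC by -1.59 (SE 0.17, limma adjusted p = 4.47e-07). Its partners AURKB and INCENP were not called in any comparison with ESC: INCENP was 52.6 ± 26.9 RPM in ESC and 33.3 ± 6.75 in late cells (SD, n = 4 each), and AURKB was 112 ± 34.7 and 77 ± 33.9 RPM, with overlap in both. Their difference from BIRC5 was not tested.

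NUF2 is part of the NDC80 complex, which grips the spindle fibre. It was 140.0, 117, 131 and 92.1 RPM in ESC, 38.1, 34.6 and 37.7 on day 6 in aRB27, 55.4 and 56.1 on day 6 in GK15, and 52.0, 42.4, 31.1 and 16.6 on days 8 and 10. Day 6 and later lay below every ESC library, and late cells differed by -1.82 (SE 0.20, limma adjusted p = 6.3e-07). The other 5 kinetochore genes were lower in late cells by -1.28 (CENPA, the histone that marks centromeres) to -1.89 (SPC25, of the same complex as NUF2).

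BUB1, a checkpoint kinase, was the earliest of the 40 to be called. It was 282, 449, 303 and 213 RPM in ESC, and already 154 and 119.9 RPM on day 2 in aRB27 and 154 in GK15. On day 4 it was 97.9 and 110 RPM in aRB27 and 119.5 in GK15, on day 6 it was 161, 127 and 88 in aRB27 and 132 and 107 in GK15, and on days 8 and 10 it was 93.8, 48.5, 48.4 and 27.9 RPM. All BTAG positive libraries lay below the lowest ESC library, every day 2 library was above every day 4 library, and day 6 overlapped both. Late cells differed from ESC by -2.57 (SE 0.26, limma adjusted p = 1.52e-07). Over days 2 to 6 alone its slope was only -0.05 per day (limma adjusted p = 0.485). BUB1B, MAD2L1 and TTK, a pseudokinase, an inhibitor of the anaphase-promoting complex and a kinase of the checkpoint, were lower in late cells by -1.25, -1.32 and -1.34.

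KIF2C, a motor that frees wrongly attached fibres, was 177, 289, 224 and 135 RPM in ESC, 90.1, 93.2 and 85.3 on day 6 in aRB27, 100.4 and 107 on day 6 in GK15, and 70.6, 50.9, 59.5 and 41.5 on days 8 and 10. The late difference was -1.84 (SE 0.24, limma adjusted p = 4.63e-06). Its call on day 6 in aRB27 was lost without reporter ESC library 2 (-0.96). HMMR, a spindle pole protein, and DLGAP5, which stabilises spindle fibres, were lower in late cells by -1.96 and -1.65.

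PTTG1 encodes securin, which restrains the enzyme that parts sister chromatids. In ESC it was 542, 446, 570.1 and 378 RPM, then 358 and 234 RPM on day 2 in aRB27 and 271 in GK15, and 128, 162 and 169 on day 6 in aRB27 and 150.3 and 207 in GK15. On days 8 and 10 it was 208, 152, 156 and 101.1 RPM, which overlapped day 6 in GK15, with a difference of -0.24 (SE 0.24, limma adjusted p = 0.698). Against ESC it was -1.67 in late cells (SE 0.19, limma adjusted p = 9.83e-07). CDC20, which activates the anaphase-promoting complex, was 207 ± 80.6 RPM in ESC and 42.0 ± 14.5 RPM in late cells (SD, n = 4 each, log2 -2.26, SE 0.25, limma adjusted p = 4.16e-07), and UBE2C, the enzyme that supplies that complex with ubiquitin, was lower by -1.66.

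KIF20A, a motor of the midzone between dividing nuclei, was 106, 183, 61.1 and 77.6 RPM in ESC, 41.5, 34.6 and 26.5 on day 6 in aRB27, 47.9 and 60.3 on day 6 in GK15, and 45.5, 18.2, 20.1 and 7.54 on days 8 and 10. Its ESC libraries were widely spread, yet the lowest stood above every library of day 6 and later, and late cells differed by -2.31 (SE 0.34, limma adjusted p = 1.9e-05). KIF23, its neighbour in the midzone, and ANLN, which links the ring to the cell membrane, were lower in late cells by -1.98 and -1.71.

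**Figure D3:**
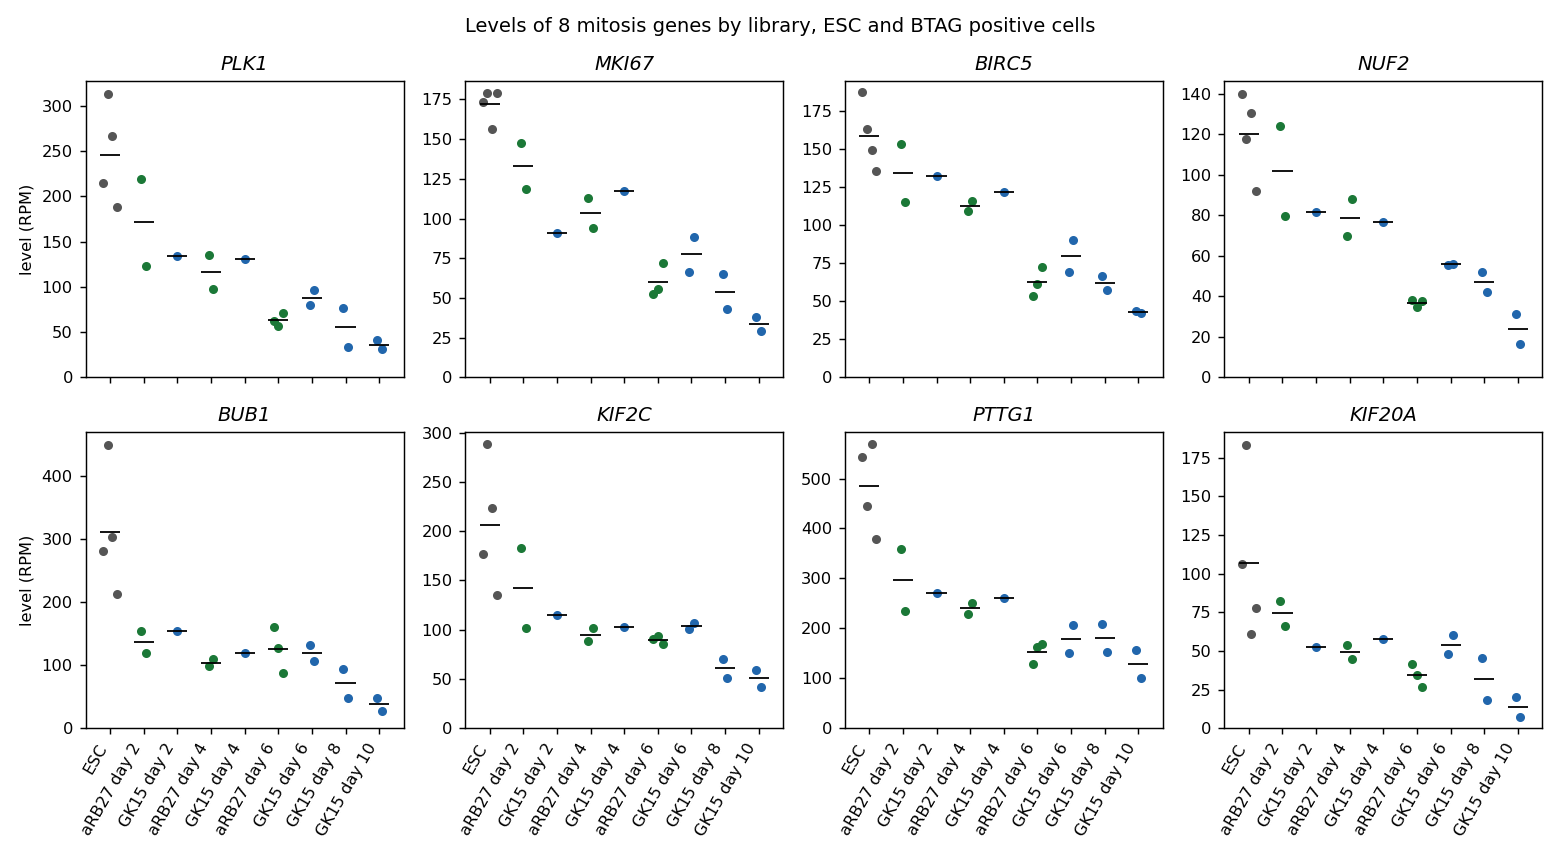
Level in RPM (vertical axes, from 0) of PLK1, MKI67, BIRC5, NUF2, BUB1, KIF2C, PTTG1 and KIF20A in each library (points) of reporter ESC and BTAG positive cells by medium and day (horizontal axes); lines are group means. BUB1 is already at 154, 120 and 154 RPM on day 2, PTTG1 is at 150.3 and 207 RPM on day 6 and 208 and 152 RPM on day 8 in GK15, and all 8 are lowest in mean on day 10.

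Few single genes were called on the early days. On day 2, as the mean of both media, BUB1 was the only mitosis gene called, at -1.05 (SE 0.29, limma adjusted p = 0.0125), where 5.51% of genes were called lower; the median over the 40 was -0.25, with 28 below 0, and 7 genes were lower in all 3 libraries than in ESC (13.7% of all genes). BUB1 missed the size required when aRB27 BTAG day 2 library 2 (-0.96) or reporter ESC library 2 (-0.86) was left out, and as labelled 0 genes were called. On day 4 BUB1 was again the only one, at -1.43 (SE 0.29, limma adjusted p = 0.000835), where 9.13% were called lower; the median was -0.49, with 34 of 40 below 0, and 20 genes lay lower without overlap (17.8% of all genes). On the adjusted p alone 11 genes passed on day 4 (13.4% of all genes, lower), among them KIF2C (-1.0) and PLK1 (-0.97). The day 4 count was 5 without reporter ESC library 4, 3 without reporter ESC library 1 or GK15 BTAG day 4 library 1, and 2 when reporter ESC library 3 or either aRB27 library of day 4 was left out.

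Within GK15, days 8 and 10 were set against day 6 to see the later step, a comparison that rests on 2 libraries of day 6. All 40 genes had a lower estimate, with a median of -0.92 against -0.12 over all genes. An unadjusted limma p under 0.05 was reached by 32. For this rule, here and in the comparisons below, the share over all genes was not counted. Its counts therefore cannot show an excess over other genes. Only 2 were called, where 0.15% of genes were called lower. KIF23 was 87 and 88.6 RPM on day 6 and 45.5, 25.2, 25.6 and 22.6 RPM on days 8 and 10 (log2 -1.59, SE 0.26, limma adjusted p = 0.0111). ASPM was 62.9 and 69.3 RPM on day 6 and 43.6, 30.9, 24.2 and 23.4 RPM later (log2 -1.13, SE 0.22, limma adjusted p = 0.0403). The late libraries of both genes lay below the 2 of day 6. Without either day 6 library or GK15 BTAG day 8 library 2 none was called, without GK15 BTAG day 10 library 2 there was 1, and without GK15 BTAG day 8 library 1 there were 5. As labelled, 25 were called. The doubtful day 6 library then took part, with PRDM1 at 0.5 RPM and the 40 genes summing to 7790 RPM. In this comparison the median of all genes moved to 0.00 with median-of-ratios scaling, which called 1.

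Media did not differ by any call. Over days 2, 4 and 6, limma called 0 of the 40 genes between aRB27 and GK15, with 1 at an unadjusted p under 0.05 (ECT2, -0.36), and edgeR and DESeq2 called 0 too; in all, 0.0841% of genes were called in either direction. On day 6 alone, a comparison added after seeing the data, limma called 0, with 3 at an unadjusted p under 0.05, edgeR and DESeq2 called 0, and 0.159% of genes were called. The 3 were AURKB (76 against 140.4 RPM, log2 -0.86, SE 0.32), ECT2 (94.0 against 137 RPM, log2 -0.53, SE 0.24) and NUF2 (36.8 against 55.7 RPM, log2 -0.59, SE 0.26), all lower in aRB27. The sums over the 40 genes did not overlap on day 6, at 3210 to 3398 RPM in aRB27 (n = 3) and 3719 to 3952 RPM in GK15 (n = 2). The mean was lower in aRB27 for 33 of the 40, a count whose share over all genes was not taken.

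The cells of the other gates were compared at matched days and media. BT single positive cells of day 4 in aRB27 summed to 6230 and 4372 RPM over the 40 genes, and BTAG positive cells to 4378 and 4230 RPM, so the groups overlapped. Set side by side by the nearest running numbers in the titles, which the labels do not say mark 1 induction, BT single was the higher both times (6230 against 4378 RPM and 4372 against 4230 RPM). Limma called 0 of the 40 between them, with 3 at an unadjusted p under 0.05 (CDK1, CDC20 and BUB1, by 0.66, 0.78 and 0.82, higher in BT single), while edgeR and DESeq2 called 0 and 15.1% of all genes were called. Against ESC limma also called 0 in BT single cells, with 5 at an unadjusted p under 0.05 and a median of -0.33, edgeR and DESeq2 called 0, and 14.3% of all genes were called; without aRB27 BT single day 4 library 1 there was 1. PLK1 was 264 and 122 RPM in these libraries. The BT single library of day 2 summed to 4052 RPM and held the most endoderm marker RNA, 2414 RPM; the part of endoderm cells was not tested.

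AG mid cells were represented by lone libraries, which stood far apart at 3575 RPM on day 2 and 6226 RPM on day 4. With the mean of both days set against BTAG positive cells, limma called 0 of the 40 genes, with 1 at an unadjusted p under 0.05 (PRC1, -0.68, SE 0.31), edgeR and DESeq2 called 0, and 11.1% of all genes were called. Without GK15 AG mid day 4 library 1 or GK15 BTAG day 4 library 1 there was 1. On day 4 MKI67 was 180.2 RPM in the AG mid library and 117 in the BTAG positive one, and PLK1 178 and 131 RPM. These libraries share the medium but not the title code (MS134 and MS162). Day 2 in aRB27 went the other way. There MKI67 was 79.6 RPM in AG mid against 148 and 118 in BTAG positive cells, and PLK1 90.8 against 220 and 123 RPM.

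**Figure D4:**
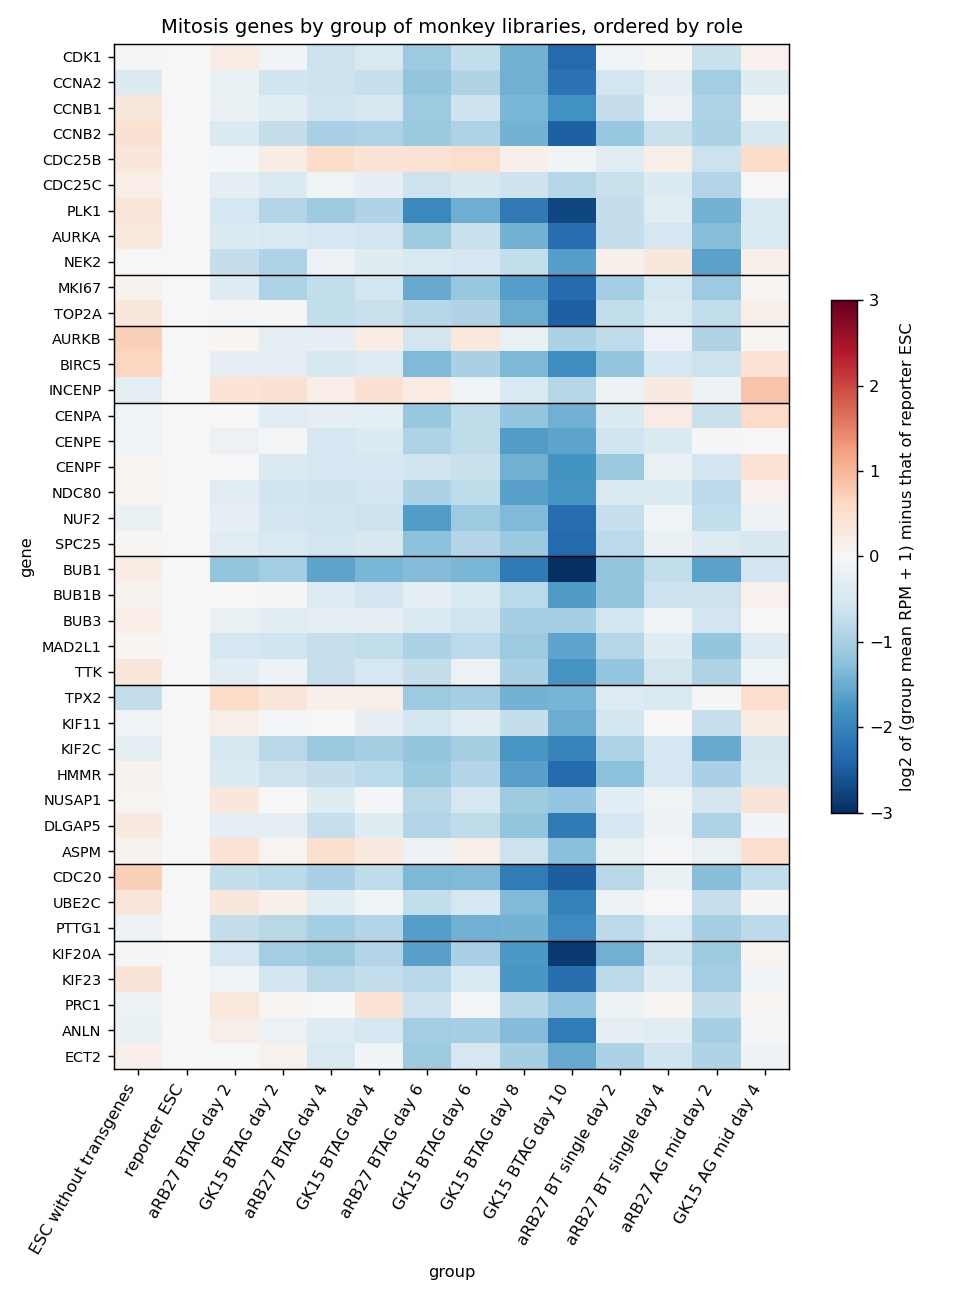
Log2 of group mean RPM + 1 minus that of reporter ESC (colour, blue lower and red higher) for the 40 genes (vertical axis, by role, separated by lines) in 14 groups of monkey libraries (horizontal axis). Blue deepens from day 2 to day 10, and on day 10 it is deepest in BUB1 and KIF20A, while CDC25B is near 0 or above it in all BTAG groups.

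Reporter ESC were also set against the lines without transgenes. Limma called 0 of the 40 genes between them, with 3 at an unadjusted p under 0.05, edgeR and DESeq2 called 0, and 0.2% of genes were called. The 3 were BIRC5 (-0.65, SE 0.21), AURKB (-0.74, SE 0.25) and CDC20 (-0.77, SE 0.27), all lower in the reporter lines. The sum was 7399 ± 1930 RPM in lines without transgenes (SD, n = 5), from 4427 to 9732 RPM, and both extremes were libraries of line CMK6. The title codes differ between the groups, so code and line cannot be told apart.

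Mouse PGCLC were read in a table of their own and are compared only with each other. The 40 orthologs summed to 7251 and 7492 RPM on day 4 and to 6917 and 6486 RPM on day 6, so that both day 6 libraries were lower. Limma called 0 of the 38 tested (Cdc25b and Spc25 missed the filter of 10 RPM), with 9 at an unadjusted p under 0.05, edgeR and DESeq2 called 0, and 2.59% of all genes were called. The median was -0.11 against -0.05 over all genes. Cdc20 came nearest, at 268 and 234 RPM on day 4 and 191 and 179 on day 6 (log2 -0.44, SE 0.12, limma adjusted p = 0.0783). Plk1 was 64.5 and 54.8 RPM on day 4 and 52.9 and 69.4 on day 6, with overlap.

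Other genes of the cell cycle were followed in lists chosen by name, also with earlier results of these data known. Their counts stand against 15.7% of all genes called lower and 15.4% called higher in late cells. Of 21 further genes of mitotic entry, late GK15 cells had 5 lower and 1 higher (LIN37, 1.04) than ESC. WEE1, the kinase that holds CDK1 inactive, was 306 ± 180 RPM in ESC and 50.4 ± 20.7 in late cells (SD, n = 4 each, log2 -2.50), and MYBL2, an activator of late cell cycle genes, 203 ± 40.9 and 57.1 ± 19.9 RPM (log2 -1.86). FOXM1, another such activator, was not called against ESC but fell with the day (-0.21 per day, SE 0.03, limma adjusted p = 0.000349). Among 32 further kinetochore and centromere genes tested 11 were lower, led by SGOL2, the protector of centromeric cohesion (-2.06), and CENPU (-2.03), and SKA1, which holds kinetochores to fibres, was higher at 51.0 ± 14.7 against 19.5 ± 11 RPM (SD, n = 4 each, log2 1.45). Of 26 further spindle and cytokinesis genes 12 were lower, led by the motor KIF4A (-2.16), and none higher. Condensin and cohesin had 6 of 18 lower, led by NCAPG (-1.65), and the anaphase-promoting complex 2 of 17, its inhibitor FBXO5 (-1.42) and its subunit ANAPC15 (-1.36), a share below that of all genes. Their medians were -0.57, -0.82, -0.89, -0.63 and -0.25 in the order given, against -1.64 for the 40.

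DNA replication genes were read beside them. In late cells 11 of 34 tested were lower and none higher, where 15.7% and 15.4% of all genes were, with a median of -0.77; TK1, which makes thymidine phosphate, differed by -2.15 and RRM2, of the enzyme that makes deoxynucleotides, by -1.48. The 34 genes summed to 4712 ± 879 RPM in reporter ESC (SD, n = 4), 3546 ± 179 on day 6 in aRB27 (n = 3), 4100.1 ± 20.7 on day 6 in GK15 (n = 2) and 2394 ± 126 on day 10 (n = 2). The ratio of the mitosis sum to the replication sum was 1.44 ± 0.39 in ESC (n = 4), 1.2 ± 0.03 on day 4 and 0.93 ± 0.03 on day 6 in aRB27 (n = 2 and 3), and 0.94 ± 0.04, 0.82 ± 0.06 and 0.73 ± 0.06 on days 6, 8 and 10 in GK15 (n = 2 each). All libraries of day 6 and later lay below every ESC library in this ratio, which ran from 1.10 to 1.93 in ESC. MCM2, a subunit of the replicative helicase, was higher on day 6 in GK15, at 524 and 505 RPM against 193 to 273 RPM in ESC (log2 1.13).

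**Figure D5:**
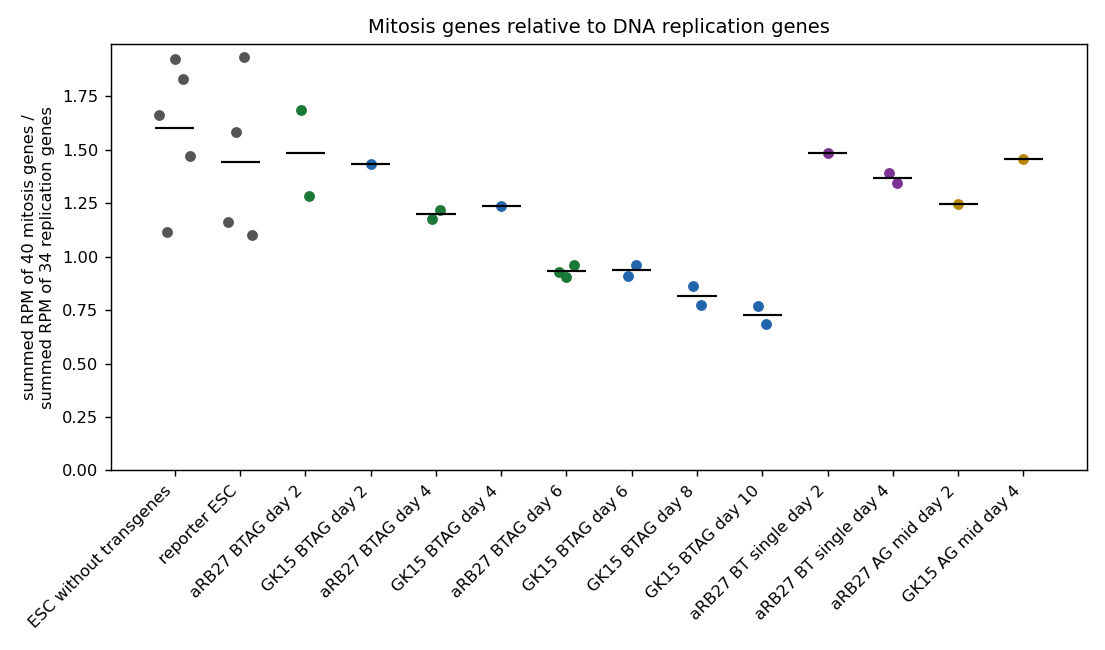
Ratio of the summed RPM of the 40 mitosis genes to that of 34 DNA replication genes (vertical axis) in each monkey library (points), by group (horizontal axis); lines are group means. BTAG positive libraries lie between 1.18 and 1.68 on days 2 and 4, and between 0.68 and 0.96 on day 6 and later. Those of BT single and AG mid cells, all of days 2 and 4, lie between 1.25 and 1.48.

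Of 20 G1 cyclins, kinases and E2F factors tested in late cells 4 were higher and 4 lower, near the shares of all genes (15.4% and 15.7%). CCND2, a D-type cyclin, was 482 ± 33.3 RPM against 136 ± 62.9 in ESC (SD, n = 4 each, log2 1.93), and its relative CCND1 52.8 ± 9.50 against 22.1 ± 5.81 RPM (log2 1.23). CDK6, a partner of these cyclins, was 0 to 12.1 RPM in late cells and 20.0 to 31.8 in ESC (log2 -3.64), and CCNE1, the cyclin of S phase entry, was lower by -1.95. Of 4 CDK inhibitors tested, CDKN1C was lower in late cells (log2 -3.65), and CDKN1A, the p53 target p21, rose along the BTAG positive libraries (0.62 per day, SE 0.10, limma adjusted p = 0.000235). CDKN1A was 10.5 and 0 RPM on day 2 in aRB27 and 1.39 in GK15, 31.1, 23.7 and 14.7 on day 6 in aRB27, 56.2 and 32.0 on day 6 in GK15, and 44.6, 49.8, 69.9 and 141 on days 8 and 10. ESC, at 15.1 to 51.8 RPM, stood above day 2, overlapped days 4, 6 and 8, and lay below both libraries of day 10.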

How the data were processed

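The values were deposited by the authors as RPM per gene, 1 table per species. The submitters' processing notes name cutadapt 1.3, TopHat 1.4.1, Cufflinks 2.2.0 and GRCm38, without roles; no source used here gives a monkey build, and monkey coordinates were not used. RPM give no gene length, and 3′ reads need none.

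Differences were tested with limma 3.58.1 (R 4.3.3, intensity trend) on log2(RPM + 1) over genes that reached 10 RPM in 2 or more libraries, with Benjamini-Hochberg adjustment over all genes. The 24 reporter-line libraries were fitted together, so lone libraries borrowed their spread. The day trend (15 libraries, medium as a term), both ESC kinds and mouse had their own fits. The pseudocount of 1 understates folds of low genes.

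Reads were also recovered from the RPM step (99.4 to 99.8% of low values whole within 0.1 reads) for edgeR 4.0.16 and DESeq2 1.42.0. Libraries are numbered in accession order within a group, left-out ones included. Members and lists were chosen with earlier results of these data known. Values per library were given for PLK1, MKI67 and, in each role, the gene with the largest called difference of day 6, and up to 4 genes per other list were named by the largest called differences. CDC25B, TPX2, KIF23, ASPM, SKA1, FOXM1, MCM2 and CDKN1A were named or given per library after their values were seen. The count tests, scaling, filters and single libraries were the alternatives; the slope over GK15 alone and over days 2 to 6, the media on day 6 and a block by title numbers were added after seeing the data. The fits were tested on simulated data.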

Additional observations from a re-analysis of the deposited data

Results flagged for a closer look

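In lines without transgenes, library 2, of line CMK6, stood apart below the other 4 in CDK1 (77.9 RPM, the next 244.7), NUF2 (40.4 RPM, the next 110.7), BUB1B (41.1 RPM, the next 133) and ASPM (25.3 RPM, the next 68.3). Library 1, of the same line, stood apart below the others in PTTG1 (221 RPM, the next 455). Among reporter ESC, library 2, of clone 656BTAG63, stood apart above the others in AURKA (182 RPM, the next 112) and ANLN (186 RPM, the next 145.5). A gap rule (Dixon's) was applied to 80 groups of values, of which chance would pick about 4, and it picked these 7.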

How the results depend on the processing

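Labels give no replicate numbers, so libraries were paired only by nearness of the running numbers in their titles, an alternative added after seeing the data. With this replicate block, limma again called 0 for BT single against BTAG day 4 and 0 for mouse day 6 against day 4; the pairs' deviations correlated at 0.16 and 0.17 over genes, and 2 pairs do not settle whether the numbers pair the libraries. In the other comparisons the title code was the only block fitted. The 98 single-gene calls gave 2203 results under the alternatives, of which 2060 kept direction and threshold, 143 kept direction only and 0 reversed. The adjusted p alone is among the alternatives, and no call can be lost under it. For days 8 and 10 against ESC (34 genes) no alternative moved the count by over 1.5 times, and single libraries left out gave 31 to 35; for the day trend (35), 33 to 36, and days 2 to 6 alone gave 22. In GK15 day 6 (6), the adjusted p alone gave 17, DESeq2 10, every library as labelled 0, and single libraries left out 6 to 11. In aRB27 day 6 (19), a pseudocount of 10 gave 12, and single libraries left out 12 to 22. On day 2 (1), no filter, the title code as a term and every library as labelled gave 0, the adjusted p alone 4, and single libraries left out 0 to 1. On day 4 (1), a pseudocount of 0.1, median-of-ratios scaling, quantile normalization and the title code as a term gave 2, edgeR and every library as labelled 3, DESeq2 4, the adjusted p alone 11, and single libraries left out 1 to 5. For days 8 and 10 against day 6 in GK15 (2), a pseudocount of 10, median-of-ratios scaling, edgeR, only the groups compared and the title code as a term gave 1, DESeq2 4, every library as labelled 25, and single libraries left out 0 to 5. There the median of all genes was -0.12, and 0.00 after median-of-ratios scaling. Single libraries left out gave 0 to 1 for BT single against ESC and for AG mid against BTAG. The cause of these shifts was not tested. Groups of 1 to 3 libraries limit every value of induced cells, and days 8 and 10 reach 4 libraries only when pooled. In the shallowest library 1 RPM is about 1 read.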
